A study of Mus musculus with 6 samples.

Results

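The genes described here encode the glucose transporters, the enzymes and regulators of glycolysis, the glycerol phosphate dehydrogenases and the enzymes of glycogen. They are a list of 34 mouse symbols, with the lactate dehydrogenases left out. All 34 were found among the 57180 gene identifiers of the expression table, and 33 reached 1 TPM in 3 or more of the 6 libraries and were tested. TPM is the share of a library's transcripts that a gene takes after correction for transcript length, scaled to a total of 1000000. The gene outside the test was Fbp1, for a fructose bisphosphatase of glucose synthesis, which was listed at 0 in every library. The cells were wild-type (WT) mouse bone marrow-derived macrophages (BMMs), held for 5 days under conditions that turn macrophages into osteoclasts, the multinucleated cells that resorb bone. One group of 3 libraries had received Visomitin, a plastoquinone derivative that is drawn into mitochondria and acts there as an antioxidant, and the other 3 libraries, called control, had not. No source used here gives the dose, or says whether the libraries of a group came from separate mice or cultures. The p-values below therefore reflect the spread among these libraries alone, possibly a technical one, and the sequencing depth is unknown because TPM do not keep it.

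Glucose enters a cell through facilitative transporters, is trapped by hexokinase, and is split and oxidised to pyruvate, with a net gain of ATP. Phosphofructokinase is the main control point, and the bifunctional Pfkfb enzymes make and remove the sugar phosphate that activates it. Glycogen is a branched store of glucose that is built from a glycogenin primer and opened by glycogen phosphorylase. Osteoclasts use glycolysis and mitochondrial respiration, and the title of the study places osteoclast metabolism at its centre. The comparison asks how the transcripts of these pathways stood with Visomitin.

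The pathway's transcripts differed little as a group, while 3 of its genes passed the test. Pygl, the liver-type glycogen phosphorylase, and Aldoc, the brain-type aldolase, rose with Visomitin, and Pfkfb2, a bifunctional regulator of phosphofructokinase, fell. Among the 33 tested members, 2 thus rose and 1 fell, and the test was not passed by 30 (limma, Benjamini-Hochberg adjusted p under 0.05 over 11753 genes). Of all tested genes 7.1% were called, 2.08% higher and 5.03% lower, so the members' count, 3 in all, was near the background. The median log2 fold change of the members was 0.09 and that of all tested genes -0.03. The members' median was -0.0034 without Visomitin 3, 0.17 without Visomitin 1 and 0.15 without control 3. Of the members 22 lay above 0 and 11 below, against 5203 above and 6550 below among all tested genes. Groups of libraries did not overlap for 5 members higher with Visomitin and 6 lower, 11 in all, where 11.9% and 18.4% of all tested genes, or 30.4% together, had such values. The count of members that rose depended on single libraries. It was 4 without Visomitin 1, 0 without Visomitin 2, and 1 without Visomitin 3, control 1, control 2 or control 3, while the count that fell was 1 in each case. The gene that rose was Pygl without Visomitin 3, control 1 or control 2, but Hk2 without control 3. Among all tested genes, 244 rose with all 6 libraries, 420 without Visomitin 1, 64 without Visomitin 2 and 130 without Visomitin 3. Without control 1, 2 or 3, the counts of all tested genes that rose were 65, 108 and 73.

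**Figure D1:**
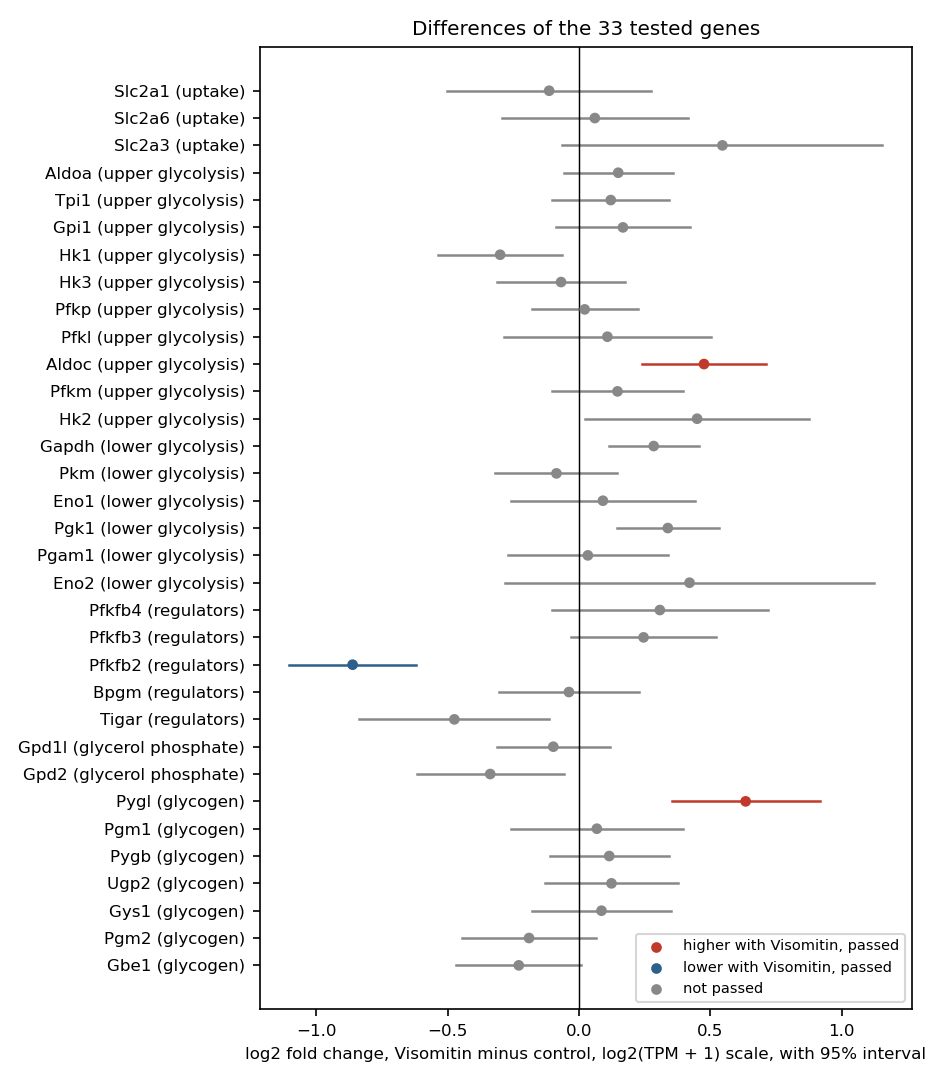
Log2 fold change (Visomitin minus control, on the log2(TPM + 1) scale) of the 33 tested genes, grouped by role, with bars for the 95% interval of limma's fit. Pygl and Aldoc lie to the right of 0 and Pfkfb2 to the left with adjusted p under 0.05, and the other 30 genes are drawn in grey.

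Macrophage and osteoclast markers were both present, at levels that differed widely between genes. The macrophage markers Csf1r, Adgre1, Cd68, Itgam, Lyz2 and Mertk summed to 41892 to 47112 TPM with Visomitin and 36254 to 40573 TPM in control. Lyz2 made up most of that sum, at 38065 to 42065 TPM with Visomitin and 32021 to 36284 TPM in control. Of the 6 macrophage markers 1 rose, Mertk (log2 fold change 0.57, limma adjusted p = 0.022), 0 fell and 5 did not pass, among them Lyz2 (0.21) and Cd68, at 1501 to 1712 TPM with Visomitin, against 1814 to 1928 TPM in control (-0.20). The 7 osteoclast markers (Acp5, Ctsk, Dcstamp, Ocstamp, Atp6v0d2, Calcr and Mmp9) fell, 7 of 7, and summed to 2900.1 to 3484 TPM with Visomitin and 10956 to 11911 TPM in control. Acp5, Ctsk and Mmp9 made up most of that sum, while Calcr was at 1.46 to 1.86 TPM with Visomitin and 9.68 to 12.8 TPM in control. In bulk RNA, fewer osteoclasts and less RNA per osteoclast cannot be told apart, and the part of cell makeup in the differences below was not tested. Listed stromal genes, mainly collagens, summed to 72.7 to 160 TPM with Visomitin and 109 to 312 TPM in control, highest in control 3. Bglap was listed at 0 in each library. Of the stromal list 4 of 7 were tested and 0 passed. The erythroid markers were all listed at 0. T cell markers summed to at most 1.13 TPM, B cell markers to at most 1.65 TPM, dendritic cell markers to at most 1.91 TPM and neutrophil markers to at most 19.5 TPM, with Ly6g, Mpo, Elane and Cd3e listed at 0. The first principal component of all tested genes, with 44.1% of the variance, separated the groups, and the second, with 19.6%, set Visomitin 1 apart.

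Promoter windows of the 3 genes that passed are shown because the study's title names STAT3, whose sites can be searched for by their letters, and because glycolytic genes are classical targets of hypoxia-inducible factors. The sequences are from RefSeq on build GRCm38.p6. No source used here names the build behind the expression table. Each run holds the 250 bases before an annotated start site, read 5′ to 3′ on the gene's strand, with motif matches in capitals. Pygl has 1 window in the table, at chr12:70227684-70227933 on the minus strand. Aldoc has 2 and the one at chr11:78323948-78324197 on the plus strand is shown, the other having no match. Pfkfb2 has 3, and the window at chr1:130715822-130716071 on the minus strand is shown. Of its other windows 1 had a match and 1 had none.
Pygl: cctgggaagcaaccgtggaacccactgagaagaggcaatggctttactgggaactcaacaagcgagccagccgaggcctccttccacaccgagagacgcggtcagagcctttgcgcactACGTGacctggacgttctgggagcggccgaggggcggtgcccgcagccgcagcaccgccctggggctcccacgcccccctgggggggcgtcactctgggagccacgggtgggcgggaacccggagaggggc
Aldoc: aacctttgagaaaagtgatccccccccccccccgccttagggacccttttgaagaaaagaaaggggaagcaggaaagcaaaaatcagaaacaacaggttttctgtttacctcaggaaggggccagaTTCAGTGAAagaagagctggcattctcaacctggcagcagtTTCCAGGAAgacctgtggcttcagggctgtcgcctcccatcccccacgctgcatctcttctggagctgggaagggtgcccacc
Pfkfb2: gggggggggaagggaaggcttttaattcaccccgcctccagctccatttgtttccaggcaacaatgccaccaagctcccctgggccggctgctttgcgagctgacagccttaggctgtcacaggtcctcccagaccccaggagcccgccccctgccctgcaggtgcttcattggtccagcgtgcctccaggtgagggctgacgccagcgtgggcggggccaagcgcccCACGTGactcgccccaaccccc

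The motifs searched on both strands were ACGTG, TTCNNNGAA and TGATGNAA. ACGTG is 1 form of the core of hypoxia response elements, and other forms, such as GCGTG, were not searched. TTCNNNGAA gives the letters of a STAT site, and TGATGNAA those of an ATF4 composite site. ACGTG also lies inside the E-box CACGTG, as in the Pfkfb2 window, where it matches on both strands. In Pygl it began 131 bases before the start site. In Aldoc the STAT letters began 124 and 83 bases before the start site, as TTCAGTGAA and TTCCAGGAA. Of 33 members with a promoter window, 17 (51.5%) had ACGTG in at least 1 window, and 18.5% of all 27025 genes with a window had it. These 33 include Fbp1 and lack Slc2a3. Counted by window, 43.8% of 48 member windows and 16.6% of all 32851 windows had it. Members with ACGTG included Slc2a1, Hk2, Pgk1, Aldoa, Pgam1, Pkm and Pfkfb3. It also stood in Hk3, Pfkm, Pygb, Pgm1, Pgm2, Ugp2, Gpd1l and Gpd2. Members without it included Gapdh, Tpi1, Eno1, Gpi1, Pfkl, Pfkp, Hk1 and Pfkfb4. The member windows were also richer in CG, which ACGTG contains, with a median of 13 CG dinucleotides against 6 over all windows, and the part of that in the count was not tested. The STAT letters stood in 2 member genes (6.06%), Aldoc and Pfkm, against 8.13% of all genes, and the ATF4 letters in 0 of 33 against 3.91%. A match is a run of letters, not a shown binding site, and whether these cells use these start sites is unknown.

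Levels of the members spanned more than 3 orders of magnitude. Gapdh was the most abundant at 6712 ± 142 TPM with Visomitin and 5514 ± 281 TPM in control (SD, n = 3 each, as in all such values here). Pkm, Aldoa, Eno1, Pgk1, Tpi1, Pgam1, Gpi1 and Pygl followed in that order of mean level over the 6 libraries. These 9 genes held 95.4% to 96.2% of the members' summed TPM in each library. Slc2a3 was the least abundant tested member, at 2.52 ± 1.29 TPM with Visomitin and 1.34 ± 0.42 TPM in control. The enzymes of the pathway from hexokinase to pyruvate kinase, 16 genes, summed to 1.78%, 1.90% and 2.07% of all transcripts in Visomitin 1, 2 and 3, and to 1.68%, 1.64% and 1.85% in control 1, 2 and 3. The groups overlapped, since Visomitin 1 lay below control 3.

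**Figure D2:**
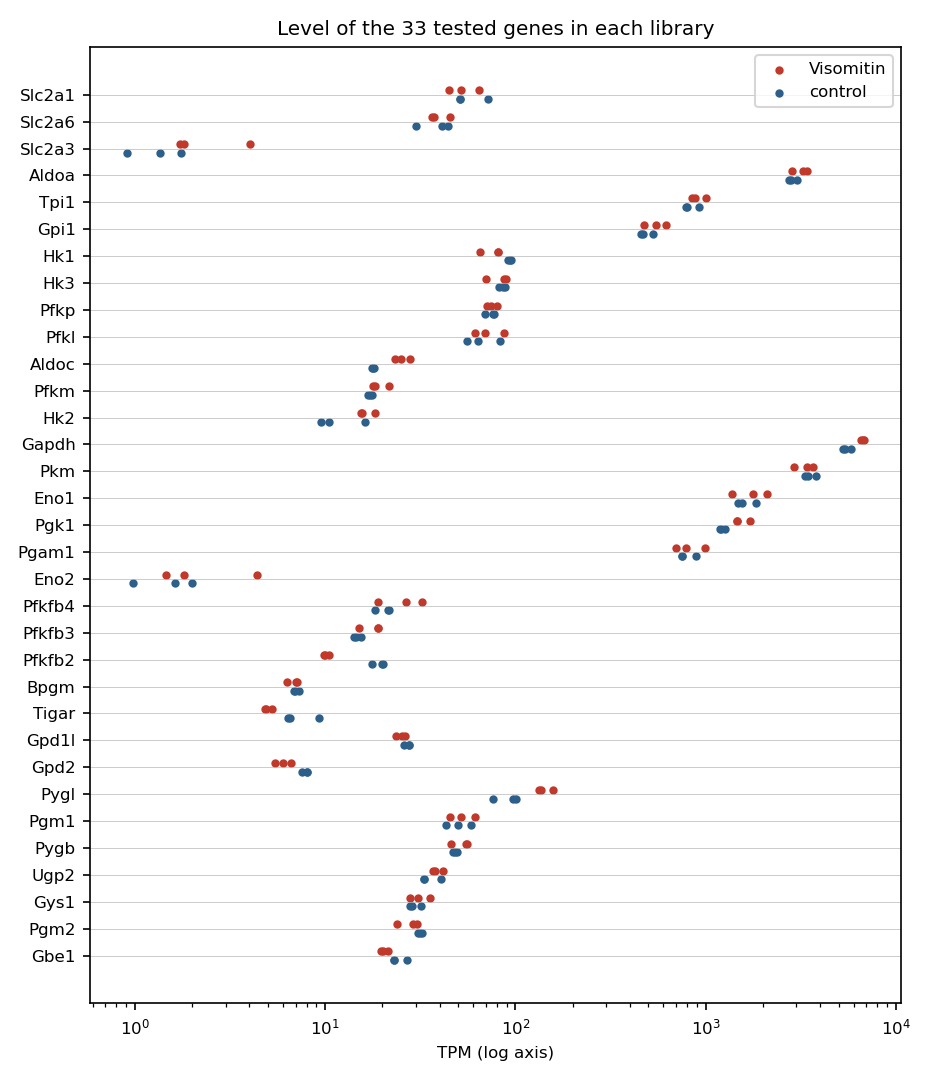
TPM on a log axis of each tested gene, 1 point a library, with Visomitin libraries drawn above control libraries in each row. Gapdh is the most abundant gene, and the 3 Visomitin points lie apart from the 3 control points for Pygl, Aldoc and Pfkfb2.

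Glucose transporters did not pass the test. Slc2a1, which encodes GLUT1, the basal glucose transporter of many cell types, was at 44.7, 51.8 and 64.5 TPM with Visomitin and 51.5, 51.3 and 71.9 TPM in control. The groups overlapped (log2 fold change -0.11, SE 0.17, limma adjusted p = 0.73). Slc2a6, for a lysosomal transporter of macrophages, was at 39.8 ± 5.05 TPM with Visomitin and 38.4 ± 7.35 TPM in control (log2 fold change 0.06). Slc2a3, for the high-affinity transporter GLUT3, was at 1.82, 1.73 and 4.01 TPM with Visomitin and 0.91, 1.36 and 1.75 TPM in control. It did not pass (log2 fold change 0.55, 95% interval -0.06 to 1.15, limma adjusted p = 0.25). The log2 difference was 0.26 without Visomitin 3 and 0.23 with a pseudocount of 5. The 3 transporters summed to 96.0 ± 11.0 TPM with Visomitin and 98.0 ± 5.24 TPM in control.

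The hexokinases phosphorylate glucose on entry. Hk1, the broadly expressed form that docks on mitochondria, was at 65.1, 81.3 and 81.1 TPM with Visomitin and 93.4, 91.5 and 94.5 TPM in control. Each Visomitin library lay below each control library, but the gene did not pass (log2 fold change -0.30, SE 0.10, limma adjusted p = 0.12). Hk2, the inducible form, was at 15.7, 15.5 and 18.4 TPM with Visomitin and 9.55, 10.5 and 16.3 TPM in control, where control 3 overlapped the Visomitin range (0.45, SE 0.19, adjusted p = 0.18). Without control 3 it passed (0.67, adjusted p = 0.045). Hk3, a form found in myeloid cells, was at 82.2 ± 10.4 TPM with Visomitin and 85.8 ± 3.22 TPM in control (-0.07).

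The shares of the isozymes in the hexokinase pool separated the groups, while its summed level did not. Hk1 was 43.1%, 43.6% and 43.5% of the summed hexokinase TPM with Visomitin and 49.3%, 49.7% and 47.4% in control. Hk2 was 10.4%, 8.31% and 9.88% with Visomitin and 5.04%, 5.70% and 8.15% in control. Hk3 was 46.6%, 48.1% and 46.6% with Visomitin and 45.7%, 44.6% and 44.5% in control. For each of these shares the 2 groups did not overlap, and the exact two-sided permutation test gave p = 0.1, the smallest that 3 against 3 libraries allow. In all, 16 shares in 8 families were compared, 9 of them reached this smallest exact p of 0.1, and their adjusted p was 0.18, so this design cannot pass the threshold. Shares within a family sum to 100% and are not independent. How often shares in other gene families would separate the groups was not tested. The summed hexokinase TPM was 175 ± 20.3 with Visomitin and 191 ± 7.61 in control.

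**Figure D3:**
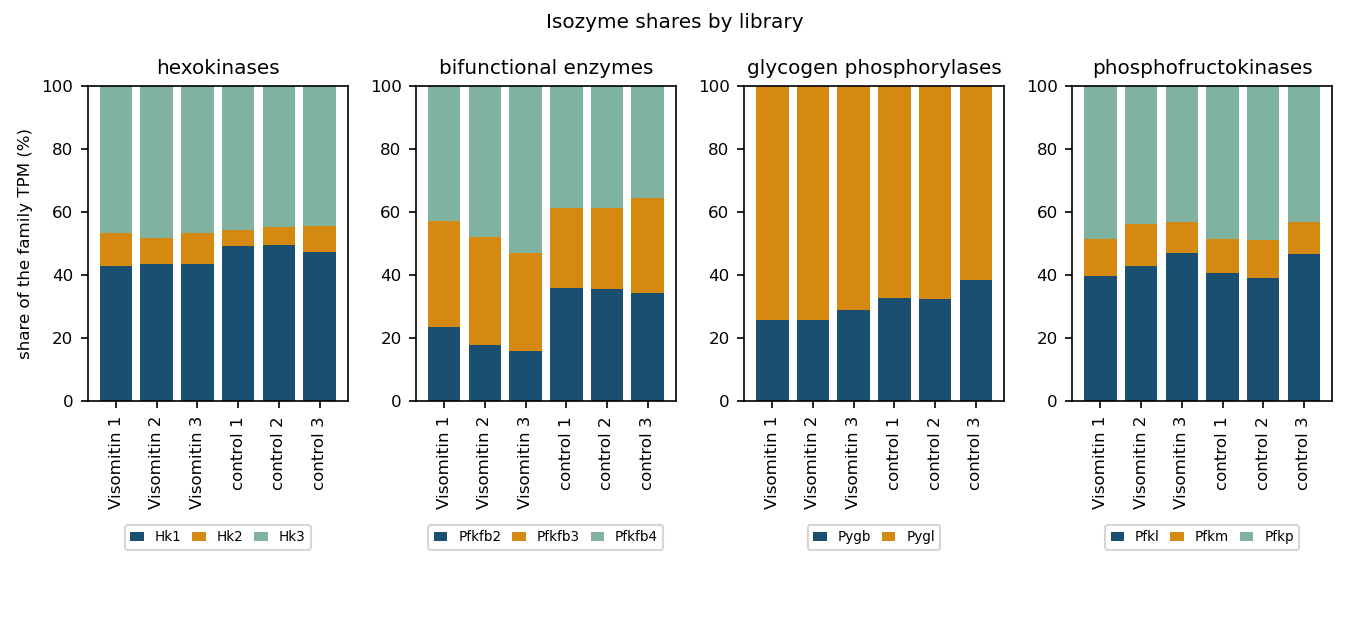
Share of the summed TPM of 4 enzyme families taken by each isozyme in each library, Visomitin libraries on the left. Hk1, Pfkfb2 and Pygb take a smaller share in each Visomitin library than in each control library, and the phosphofructokinase shares overlap.

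Between hexokinase and the triose phosphates, only Aldoc passed. Gpi1, for glucose phosphate isomerase, was at 549 ± 74.8 TPM with Visomitin and 487 ± 36.7 TPM in control (log2 fold change 0.17). The phosphofructokinase genes were close between groups. Pfkp, the platelet-type form, was at 75.3 ± 4.81 TPM with Visomitin and 74.1 ± 4.09 TPM in control, with a 95% interval of the log2 difference from -0.18 to 0.22. Pfkl, the liver-type form, was at 72.7 ± 13.6 TPM with Visomitin and 67.6 ± 14.0 TPM in control (95% interval -0.28 to 0.50). Pfkm, the muscle-type form, was at 17.9, 21.7 and 18.3 TPM with Visomitin and 17.3, 16.9 and 17.8 TPM in control. Its groups did not overlap by a narrow margin, and it did not pass (0.15, adjusted p = 0.45).

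Aldolase cleaves the sugar bisphosphate into triose phosphates. Aldoc was at 23.2, 25.2 and 27.9 TPM with Visomitin and 18.0, 18.1 and 17.8 TPM in control. Each Visomitin library exceeded each control library (log2 fold change 0.48, SE 0.10, limma adjusted p = 0.031). With any single library other than Visomitin 1 left out, the call was lost (adjusted p 0.078 to 0.11), and likewise with no filter on low values (0.060), while the log2 fold change stayed at 0.41 to 0.54 when a library was left out. Aldoa, the form that dominates, was at 2835, 3247 and 3414 TPM with Visomitin and 2796, 2734 and 3012 TPM in control, with overlap (0.15, adjusted p = 0.36). Aldoc was therefore under 1% of aldolase transcripts in each library, as Aldoa held 99.2% with Visomitin and 99.4% in control. A further identifier that carries the Aldoa symbol held 1.10 to 2.70 TPM and was not used. Tpi1, which interconverts the trioses, was at 914 ± 84.1 TPM with Visomitin and 839.9 ± 76.9 TPM in control (0.12).

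Gapdh and Pgk1, neighbouring enzymes of lower glycolysis, had the lowest adjusted p of the members that did not pass. Gapdh, the triose phosphate dehydrogenase whose transcript is often used as a reference for normalisation, was at 6828, 6554 and 6755 TPM with Visomitin and 5411, 5299.7 and 5832 TPM in control. Each Visomitin library exceeded each control library, yet the gene did not pass (log2 fold change 0.28, SE 0.07, limma adjusted p = 0.058). Pgk1, the first ATP-making kinase, was at 1463, 1468 and 1706 TPM with Visomitin and 1201, 1188 and 1271 TPM in control, again with no overlap (0.34, SE 0.08, adjusted p = 0.051). Both passed when Visomitin 1 was left out (0.042 for Gapdh and 0.037 for Pgk1) and when a mean of 5 TPM was required (0.039 for Gapdh and 0.043 for Pgk1). Pgk1 also passed after median-ratio scaling (0.030) and in a fit blocked by library number (0.038).

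The remaining enzymes of lower glycolysis did not pass, and their groups overlapped. Pgam1, phosphoglycerate mutase, was at 824 ± 149 TPM with Visomitin and 799 ± 81.5 TPM in control (log2 fold change 0.03). Eno1, the ubiquitous enolase, was at 1375, 1766 and 2093 TPM with Visomitin and 1559, 1473 and 1830.4 TPM in control (0.09). Eno2, the neuronal enolase, was at 1.82, 1.46 and 4.40 TPM with Visomitin and 0.98, 2.01 and 1.62 TPM in control, with overlap (0.42, limma adjusted p = 0.44). The log2 difference of Eno2 was 0.076 without Visomitin 3 and 0.64 without Visomitin 2. Pkm, pyruvate kinase, was at 2929, 3422 and 3663 TPM with Visomitin and 3471, 3327 and 3799.8 TPM in control (-0.09, 95% interval -0.32 to 0.15). Beyond pyruvate and outside the members, Ldha was at 1251, 1370 and 1653 TPM with Visomitin and 1317, 1325 and 1645 TPM in control. It did not pass (-0.0063, limma adjusted p = 0.98). Ldhb was at 26.7, 27.3 and 22.6 TPM with Visomitin and 95.7, 106 and 99.9 TPM in control. Ldhb did pass and was lower with Visomitin (-1.94, limma adjusted p = 3.03e-05).

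**Figure D4:**
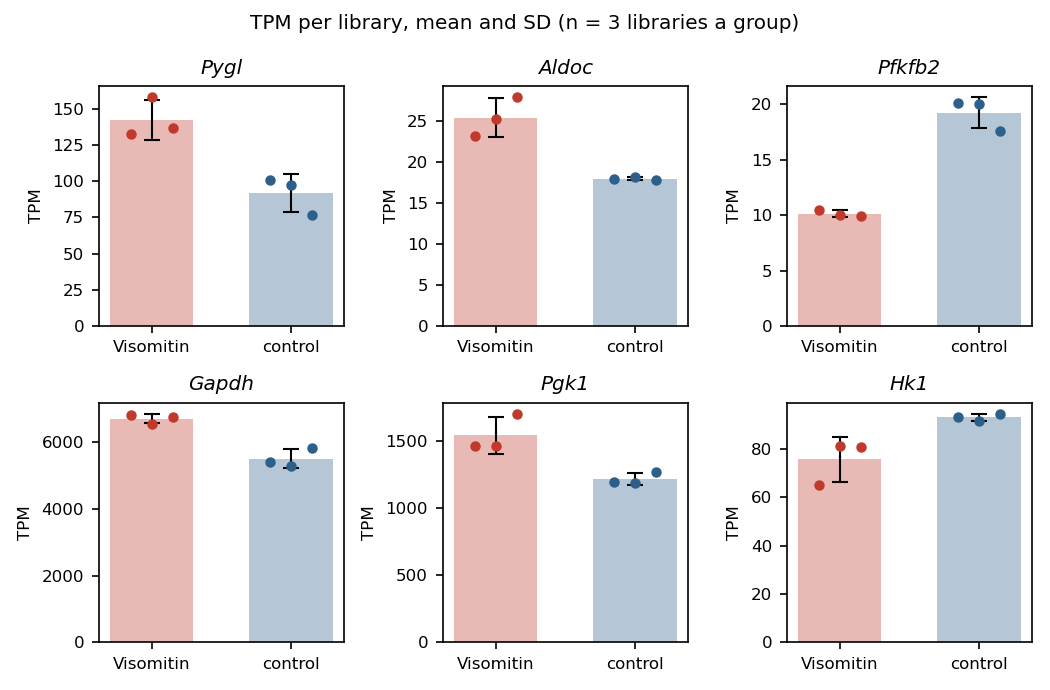
TPM of 6 members, with 1 point a library, bars at the group mean and error bars of 1 SD (n = 3 libraries a group), Visomitin on the left. All 6 are among the members whose groups do not overlap (5 higher and 6 lower, of 33 tested). Gapdh, Pgk1 and Hk1 did not pass the test over all genes.

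Some of these enzymes have near-identical copies elsewhere in the genome, so that their TPM are uncertain. Copies were taken as other genes with at least 50% of their 31-base words in a member's transcripts (GENCODE M21). Gapdh had 43 copies in the table, led by the pseudogene Gm7336, and together they held 46.6% to 52.4% of the TPM of Gapdh itself. The Pgam1 pseudogene Pgam1-ps2 held 27.8% to 48.4% of the TPM of Pgam1, and copies of Eno1, mainly Eno1b, held 4.75% to 26.9% of that of Eno1. No source used here says which gene was given the shared reads. When copies were summed with their member, Gapdh was at 10034 ± 249 TPM with Visomitin and 8158 ± 467 TPM in control (log2 fold change 0.30, limma adjusted p = 0.055). Eno1 (0.08) and Pgam1 (0.03) kept their direction and did not pass. Copies of Pgk1 and Pfkfb2 were listed at 0 in each library, and those of Gpi1, Pkm and Tpi1 held at most 0.198% of their member.

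Among the regulators, Pfkfb2 showed the largest difference of any tested member. Pfkfb2, known as the heart-type bifunctional enzyme, was at 10.5, 10.0 and 9.88 TPM with Visomitin and 20.1, 20.0 and 17.6 TPM in control. Each Visomitin library lay well below each control library (log2 fold change -0.86, SE 0.11, limma adjusted p = 0.0028), a 1.82-fold lower value on the log2(TPM + 1) scale. It passed under each of the 15 alternatives, with adjusted p between 0.0022 and 0.023. They include summing near-identical copies, which left the TPM of Pfkfb2 unchanged. Pfkfb3, the inducible form with the strongest kinase bias, was at 15.1, 18.9 and 19.1 TPM with Visomitin and 14.2, 14.5 and 15.5 TPM in control (0.25, adjusted p = 0.26). Pfkfb4 was at 19.1, 26.7 and 32.5 TPM with Visomitin and 21.5, 21.6 and 18.3 TPM in control (0.31, adjusted p = 0.34). The log2 difference of Pfkfb4 was 0.14 without Visomitin 3 and 0.51 without Visomitin 1.

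The 3 bifunctional enzymes summed to 53.9 ± 8.52 TPM with Visomitin and 54.4 ± 2.56 TPM in control, so that the sums overlapped while the shares did not. Pfkfb2 was 23.5%, 18.0% and 16.1% of that sum with Visomitin and 36.0%, 35.7% and 34.3% in control. Pfkfb4 was 42.7%, 48.0% and 52.8% with Visomitin and 38.5%, 38.5% and 35.6% in control. Pfkfb3 was 33.8%, 33.99% and 31.1% with Visomitin and 25.4%, 25.8% and 30.1% in control. Groups did not overlap for any of the 3 shares (exact permutation p = 0.1 each, adjusted p = 0.18). The TPM of Pfkfb3 and of Pfkfb4 themselves overlapped between groups.

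Tigar, a phosphatase that lowers the sugar phosphate activator of phosphofructokinase and diverts sugar phosphates to the pentose phosphate pathway, was at 4.83, 4.88 and 5.26 TPM with Visomitin and 6.57, 6.37 and 9.31 TPM in control. The groups did not overlap, with control 3 the highest, and the gene did not pass (log2 fold change -0.47, SE 0.16, limma adjusted p = 0.11). Bpgm, which makes the phosphoglycerate that loosens oxygen from haemoglobin in red cells, was at 6.83 ± 0.45 TPM with Visomitin and 7.03 ± 0.25 TPM in control (-0.04). Gpd2, the mitochondrial glycerol phosphate dehydrogenase that passes cytosolic electrons to the respiratory chain, was at 5.46, 6.65 and 6.03 TPM with Visomitin and 8.02, 7.61 and 8.03 TPM in control. It had no overlap and did not pass (-0.34, SE 0.12, adjusted p = 0.14). Gpd1l, a related cytosolic dehydrogenase, was at 25.2 ± 1.39 TPM with Visomitin and 27.1 ± 1.04 TPM in control (-0.10).

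In glycogen metabolism, the phosphorylase gene Pygl rose. Pygl was at 133, 158 and 137 TPM with Visomitin and 101, 97.7 and 76.8 TPM in control. Each Visomitin library exceeded each control library, and control 3 was lowest (log2 fold change 0.63, SE 0.12, limma adjusted p = 0.021). The call was lost with no filter on low values (0.076), without Visomitin 2 (0.080) and without control 3 (0.052). Pygb, the brain-type phosphorylase, was at 46.2, 55.2 and 55.9 TPM with Visomitin and 49.2, 47.0 and 48.2 TPM in control (0.12, adjusted p = 0.52). The summed phosphorylase TPM was 195 ± 17.3 with Visomitin and 139.9 ± 13.3 in control, of which Pygl held 73.1% ± 1.80 with Visomitin and 65.4% ± 3.46 in control (exact permutation p = 0.1, adjusted p = 0.18).

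The other genes of glycogen did not pass. Gys1, the synthase that elongates chains, was at 31.5 ± 3.85 TPM with Visomitin and 29.5 ± 2.24 TPM in control (log2 fold change 0.09). Ugp2, which makes the activated glucose donor, was at 38.9 ± 2.60 TPM with Visomitin and 35.8 ± 4.34 TPM in control (0.12). Gbe1, the branching enzyme, was at 20.3, 19.8 and 21.5 TPM with Visomitin and 26.9, 23.0 and 23.0 TPM in control, with no overlap (-0.23, limma adjusted p = 0.22). Pgm1, the phosphoglucomutase between glycogen and glycolysis, was at 53.0 ± 8.18 TPM with Visomitin and 50.5 ± 7.46 TPM in control (0.07). Pgm2, a related mutase that favours pentose phosphates, was at 23.9, 28.8 and 30.4 TPM with Visomitin and 32.5, 31.5 and 30.8 TPM in control, with no overlap (-0.19, adjusted p = 0.34).

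A further 57 genes of glucose transport, glycolysis, glycogen and glucose sensing were examined beside the members. Of these 28 were tested, 1 rose, 0 fell and 27 missed the threshold. Their median log2 fold change was -0.03, the same as for all tested genes to 2 decimals. The gene that rose was Gyg, for glycogenin, the protein on which a glycogen particle is started. Gyg was at 64.3, 63.3 and 60.0 TPM with Visomitin and 47.2, 45.0 and 36.8 TPM in control, with no overlap and control 3 the lowest (0.54, SE 0.11, limma adjusted p = 0.025). Its call was lost without Visomitin 2 (0.090), control 1 (0.052), control 2 (0.057) or control 3 (0.067), and with no filter (0.067). The count of these genes that rose was 2 without Visomitin 1 and after median-ratio or quantile scaling, and 2 fell without Visomitin 3. Groups did not overlap for 5 of the 28 tested genes higher with Visomitin and 3 lower. Of all tested genes 11.9% and 18.4% had such values. Those higher included Slc37a4, the glucose phosphate carrier of the endoplasmic reticulum (0.36, limma adjusted p = 0.11), and Slc2a8, an intracellular transporter (0.38, adjusted p = 0.13). Those lower were Eno3 (-0.51, adjusted p = 0.16), Ppp1r3e (-0.51, adjusted p = 0.15) and Pgm3 (-0.35, adjusted p = 0.14). Of the genes without overlap only Gyg passed. The kinase genes Gsk3a (-0.02) and Gsk3b (0.00), whose products inhibit glycogen synthase, were close to 0. Txnip, a glucose-induced arrestin that limits glucose uptake (0.10), also did not pass.

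The order of the libraries within a group was the same for many of these genes. Visomitin 1 was the lowest of the Visomitin libraries for 24 of 33 tested members (72.7%), against 63.4% of all tested genes. Visomitin 3 was the highest for 23 members (69.7%), against 49.3% of all tested genes. Control 3 was the highest control library for 21 members (63.6%), against 36.8% of all tested genes. The members that passed did not follow this order throughout: Pygl was highest in Visomitin 2 and lowest in control 3, and Pfkfb2 was lowest in Visomitin 3.

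**Figure D5:**
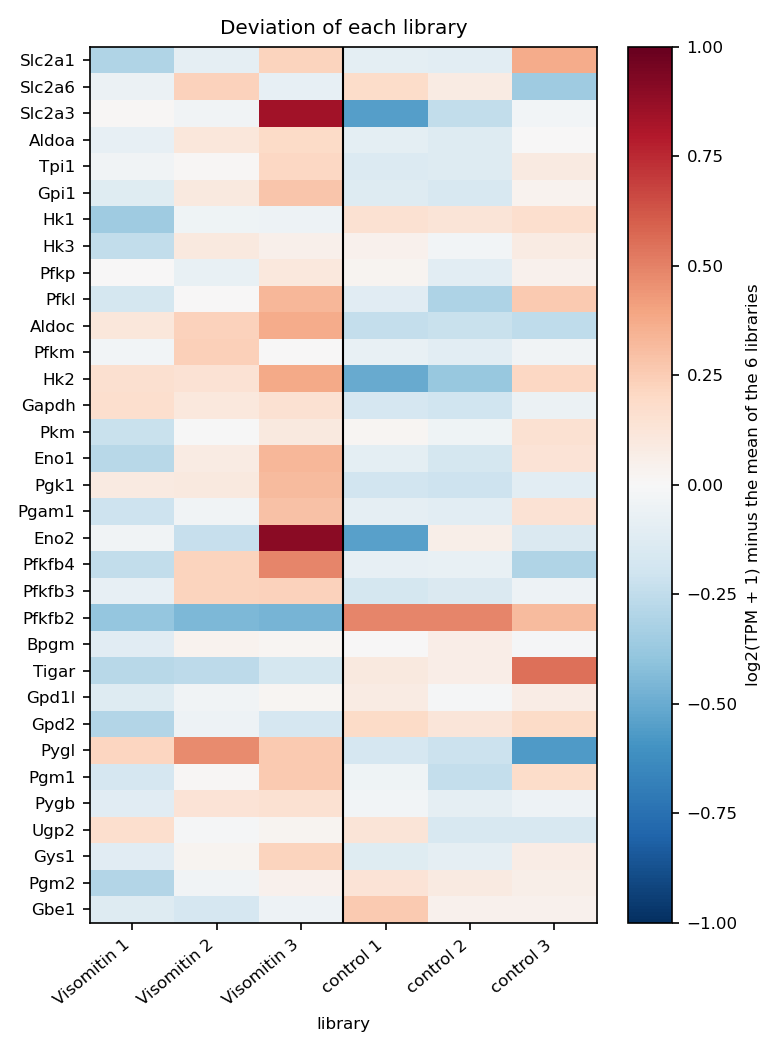
Deviation of each library from the gene's mean over the 6 libraries, on the log2(TPM + 1) scale, for the 33 tested genes, with Visomitin libraries left of the line. Visomitin 1 is the lowest Visomitin library in 24 rows and Visomitin 3 the highest in 23, and Pfkfb2 is lower than its mean in the 3 Visomitin libraries and higher in the 3 control libraries.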

How the data were processed

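RNA sequencing had been done on 6 stranded mRNA libraries, 3 a group. Per the submitters' processing notes, fastp, HISAT2 and StringTie were used. No source used here gives versions, build or annotation. The authors deposited 1 table of TPM per gene, which sums to 1000000 in each library and keeps no counts. Of 57180 identifiers, 51884 matched a symbol in a reference table of gene names. Where identifiers shared a symbol, the most abundant kept it.

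Genes that reached 1 TPM in 3 or more libraries were tested on log2(TPM + 1), a pseudocount of 1 having been added. The tool was limma 3.58.1 in R 4.3.3 (eBayes with a trend), with group alone in the model. Each difference is Visomitin minus control. Two-sided p-values were Benjamini-Hochberg adjusted over all tested genes at 0.05. The log2(TPM + 1) scale understates changes of low genes. Isozyme shares were compared by exact permutation tests (scipy 1.17.1). The fit was tested on simulated data. Labels state no pairing, so the library number was not used as a block. The members and lists were chosen with earlier results of these data known. Every member was to be named, with values per library for those that passed, those with large differences and the leading isozymes, and of the other pathway genes those that passed. A few genes of the lists are not reported here. Members and other genes with no overlap, near the threshold or near 0 were added after their values were seen. The alternatives numbered 15, of which summing near-identical copies was added after seeing the data.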

Additional observations from a re-analysis of the deposited data

How the results depend on the processing

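Pfkfb2 passed under each of the 15 alternatives, Pygl under 12 of them and Aldoc under 9. Summing near-identical copies, 1 of the 15, left the TPM of these 3 genes unchanged. Leaving out 1 library at a time gave 0 to 4 members higher and 1 member lower, with a median of -0.0034 to 0.17. It gave 0 to 2 other pathway genes higher and 0 to 2 lower, and 64 to 420 of all genes higher and 244 to 561 lower. With no filter on low values 0 members, 0 other pathway genes and 73 of all genes were higher and 308 of all genes lower. More genes enter both the trend of the fit and the adjustment there, and the part of each was not tested. With a mean of at least 5 TPM, 4 members were higher, and of all genes 261 were higher and 532 lower. Median-ratio scaling and quantile normalization each gave 2 other pathway genes higher, with 481 and 559 of all genes higher. The library number as a block gave 3 members higher and 1 lower, with 308 of all genes higher and 799 lower. Same-numbered libraries had residuals correlated at 0.046, 0.020 and 0.173. These did not all exceed 0.1, but correlations over 3 libraries a group cannot decide whether same-numbered libraries were paired. Not every library correlated best with its own number.

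Signs of small differences turned when a library was left out. The log2 fold changes ran from -0.25 to 0.046 for Slc2a1, from -0.10 to 0.17 for Slc2a6, from -0.13 to 0.039 for Hk3, from -0.033 to 0.26 for Pfkl, from -0.025 to 0.065 for Pfkp, from -0.10 to 0.15 for Pgam1, from -0.066 to 0.010 for Bpgm (0.0086 under quantile normalization), from -0.050 to 0.25 for Eno1, from -0.16 to 0.0055 for Pkm, from -0.046 to 0.18 for Pgm1 and from -0.0034 to 0.17 for Gys1. In percentage points, share differences ran from -6.36 to 1.62 for Slc2a1, from -3.00 to 5.72 for Slc2a6, from -0.91 to 3.27 for Pfkl and from -0.21 to 1.58 for Pfkm. The cause was not tested. TPM keep no depth, and precision is limited by 3 libraries a group.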

Other observations

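Eno1 and its near-identical copy Eno1b had opposite orders within the Visomitin libraries. Eno1b was at 369, 193 and 99.4 TPM in Visomitin 1, 2 and 3, where Eno1 was at 1375, 1766 and 2093 TPM, and at 239, 244 and 232 TPM in control. With copies summed, Eno1 was at 1745, 1958 and 2192 TPM with Visomitin and 1798, 1717 and 2063 TPM in control, and the SD of the Visomitin libraries was 224 TPM, against 359 TPM for Eno1 alone.

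Control 3 stood apart from the other control libraries for several members. Slc2a1 was at 71.9 TPM there, against 51.5 and 51.3 TPM in control 1 and 2, and Tigar at 9.31 TPM, against 6.57 and 6.37 TPM. Pygl was at 76.8 TPM in control 3, against 101 and 97.7 TPM. The listed stromal genes summed to 312 TPM in control 3, against 209 and 109 TPM in control 1 and 2, and their part in these values was not tested. These genes were chosen after their values were seen.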
